A study of Rattus norvegicus with 3 samples.

Results

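The tectorial membrane and otoancorin genes are 6 genes, Tecta, Tectb, Otoa, Otog, Otogl and Ceacam16, chosen by name from the 32623 genes of the rat count matrices. No measured value was a criterion of the choice, but earlier results of these data were known when it was made. Single-cell RNA sequencing was performed on the cochlear basal membrane of untreated Sprague-Dawley rats aged 1, 7 or 14 days after birth, the stages P1, P7 and P14. Each stage was 1 library made from 40 pooled rats. The labels name the cells as greater epithelial ridge cells, whereas the methods describe the whole microdissected membrane, freed of spiral ganglion, lateral wall and stria, without a sort. Of 34927 barcodes, 12779 at P1, 12581 at P7 and 5281 at P14 had a gene number above 500 and below 5000, with under 25% of their unique molecular identifiers (UMIs) on mitochondrial genes.

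Stage and library cannot be told apart, since each stage has 1 library. No test between stages was possible for that reason, and cells of 1 library are not replicates. All intervals below are exact 95% intervals that cover counting error only. The P14 library was shallower, with a median of 1614 UMIs per kept cell against 6565 at P1 and 6878 at P7. Between 16 and 53 cell barcodes were shared by each pair of libraries, and these cells were kept.

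The tectorial membrane is the gel that lies over the sensory cells of the cochlea and couples sound to their hair bundles. It is secreted during development mostly by the greater epithelial ridge and by supporting cells. Alpha- and beta-tectorin (Tecta, Tectb) are zona pellucida domain proteins that form its striated sheet, and Ceacam16 joins that sheet as it matures. Otogelin (Otog) and otogelin-like (Otogl) are large mucin-related proteins of the inner ear gels. Otoancorin (Otoa) sits at the surface where the gels are attached to the epithelium.

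The stretches of 250 bases before the gene start are shown for Tectb and Ceacam16, whose levels at P7 and P14 differed most in size and in opposite directions, and for Otoa, whose cells were a different group. They were taken from RefSeq for the assembly GRCr8, which held an entry for 5 of the 6 genes and none for Tecta. Tectb lies at chr1:264226713-264226962 on the + strand, Otoa at chr1:185074021-185074270 on the + strand and Ceacam16 at chr1:88652822-88653071 on the - strand. Capitals mark matches to TATANA, a word like the box of many core promoters, and to ACAANG, a SOX-type word, each searched on both strands.
Tectb: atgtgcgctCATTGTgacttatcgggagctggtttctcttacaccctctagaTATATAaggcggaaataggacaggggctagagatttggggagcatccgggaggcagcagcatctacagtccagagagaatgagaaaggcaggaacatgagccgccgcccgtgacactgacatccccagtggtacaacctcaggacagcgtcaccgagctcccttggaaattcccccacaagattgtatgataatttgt
Otoa: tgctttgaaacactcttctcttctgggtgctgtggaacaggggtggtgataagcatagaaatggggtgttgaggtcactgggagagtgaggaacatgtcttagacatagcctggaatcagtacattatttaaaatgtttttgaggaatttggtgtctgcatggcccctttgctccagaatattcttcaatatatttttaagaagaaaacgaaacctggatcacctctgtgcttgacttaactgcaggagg
Ceacam16: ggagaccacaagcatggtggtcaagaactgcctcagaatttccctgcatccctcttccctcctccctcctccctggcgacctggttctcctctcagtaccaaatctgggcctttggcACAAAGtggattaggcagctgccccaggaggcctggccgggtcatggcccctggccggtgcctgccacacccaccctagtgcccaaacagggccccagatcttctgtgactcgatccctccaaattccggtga
The Tectb stretch held TATATA at position -198 and the reverse complement of a SOX-type word at position -241, counted back from the gene start. Ceacam16 held 1 SOX-type word at position -133, and Otoa held neither. Outside the printed stretches, Otog held SOX-type words at positions -177 and -161, and Otogl held neither. Of 33469 rat promoters of the same length, 24.2% held TATANA and 36.9% held ACAANG, so that such matches are common.

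The epithelial cell adhesion gene Epcam was used to find epithelial cells first. A cell with at least 1 Epcam UMI was called Epcam positive, which gave 631 cells at P1, 573 at P7 and 65 at P14, or 1269 of 30641 kept cells (4.14%). Median depth was 7565, 7674 and 3191 UMIs in these cells. The label held for a minority of them. When Epcam positive cells were clustered again without the 6 genes, 468 of 1269 (36.9%) fell into sub-clusters with epithelial identity, namely 262 at P1, 159 at P7 and 47 at P14. The others were glia-like, fibroblast-like, neuron-like or in unnamed sub-clusters, and 781 of the 1269 cells carried a single Epcam UMI.

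All 6 genes were detected at every stage, but in few cells. Tecta had 2056 UMIs in 602 kept cells at P1, 1979 UMIs in 757 cells at P7 and 30 UMIs in 11 cells at P14. Tectb had 1136 UMIs in 270 cells, 4343 in 1180 and 1 in 1. Otoa had 285 UMIs in 118 cells, 406 in 138 and 18 in 17. These totals are not scaled to library size, and the P14 library held 11641065 UMIs in kept cells against 98005495 at P1 and 93080129 at P7. Otog had 329 UMIs in 194 cells, 290 in 158 and 26 in 5. Otogl had 294 UMIs in 209 cells, 98 in 72 and 30 in 16. Ceacam16 had most of its UMIs at P14, with 20 UMIs in 20 cells at P1, 16 in 13 at P7 and 130 in 34 at P14.

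Tecta (ENSRNOG00000031126) had the same level in Epcam positive cells at P1 and P7 within counting error. The summed level was 250 CPM (UMIs per 1000000 UMIs of the same cells; 237 to 263, 1437 UMIs) at P1 and 243 CPM (230 to 257, 1239 UMIs) at P7. The log2 ratio of P7 to P1 was -0.04 (-0.15 to 0.07), but it was 0.76 when the CPM of single cells were averaged in place of summed UMIs. In the epithelial sub-clusters together, Tecta was at 517 CPM (489 to 545) at P1 and 610 CPM (571 to 650) at P7, intervals that did not overlap. At P14 the level was 109 CPM (70.9 to 159), from 26 UMIs in 7 cells. One P14 cell held 17 of these UMIs, and without it 39.7 CPM (18.1 to 75.3) were left.

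Tectb (ENSRNOG00000015671) did not keep the same level. In Epcam positive cells it was at 160 CPM (150 to 171, 921 UMIs) at P1 and at 527 CPM (508 to 548, 2686 UMIs) at P7, a 3.29-fold difference with a log2 ratio of 1.72 (1.61 to 1.83). At P14 a single Tectb UMI was found in 65 Epcam positive cells, or 4.18 CPM (0.11 to 23.3), and none in the 5216 other kept cells. The upper bound of the P14 level lay below the intervals of P1 and P7. No supporting cell-like cell, a main Tectb group at the earlier stages, was among these 65 cells.

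Ceacam16 (ENSRNOG00000031391), a member of the carcinoembryonic antigen family, was highest at P14, where Tectb was lowest. In Epcam positive cells it was at 0.348 CPM (2 UMIs) at P1, 2.36 CPM (1.22 to 4.12, 12 UMIs in 9 cells) at P7 and 405 CPM (328 to 494, 97 UMIs) at P14. The P14 value came from 3 cells, and 1 of them held 86 of the 97 UMIs. Without that cell, an omission chosen after the values were seen, 46.1 CPM (23.0 to 82.4) were left, still above the P7 interval.

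Otog (ENSRNOG00000010983) was at 42.3 CPM (37.2 to 48.0) at P1 and 42.2 CPM (36.8 to 48.3) at P7 in Epcam positive cells. Its 100.2 CPM at P14 (64.2 to 149) came from 24 UMIs in 3 cells, of which 21 lay in 1 cell. Leaving out that cell gave 13.2 CPM (2.73 to 38.7), so the order of P7 and P14 rested on 1 cell. Otogl (ENSRNOG00000030316), its relative, was at 29.1 CPM (24.8 to 33.8) at P1, 14.5 CPM (11.4 to 18.2) at P7 and 125 CPM (84.5 to 179) at P14. The 30 P14 UMIs of Otogl were spread over 16 cells with at most 4 per cell, and 115 CPM (74.9 to 168) were left without the highest cell. The log2 ratio for Otogl was -1.0 (-1.42 to -0.60) from P1 to P7 and 3.11 (2.44 to 3.74) from P7 to P14. In epithelium-like clusters in place of Epcam positive cells, these ratios were -0.54 and 1.58.

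Otoa (ENSRNOG00000017487) was at 41.6 CPM (36.5 to 47.2) at P1 and 63.0 CPM (56.3 to 70.3) at P7 in Epcam positive cells, a log2 ratio of 0.60 (0.35 to 0.85). In epithelium-like clusters the ratio was 1.09. The 29.2 CPM (11.8 to 60.2) of Otoa at P14 rested on 7 UMIs in 6 cells, and this interval overlapped those of P1 and P7.

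**Figure D1:**
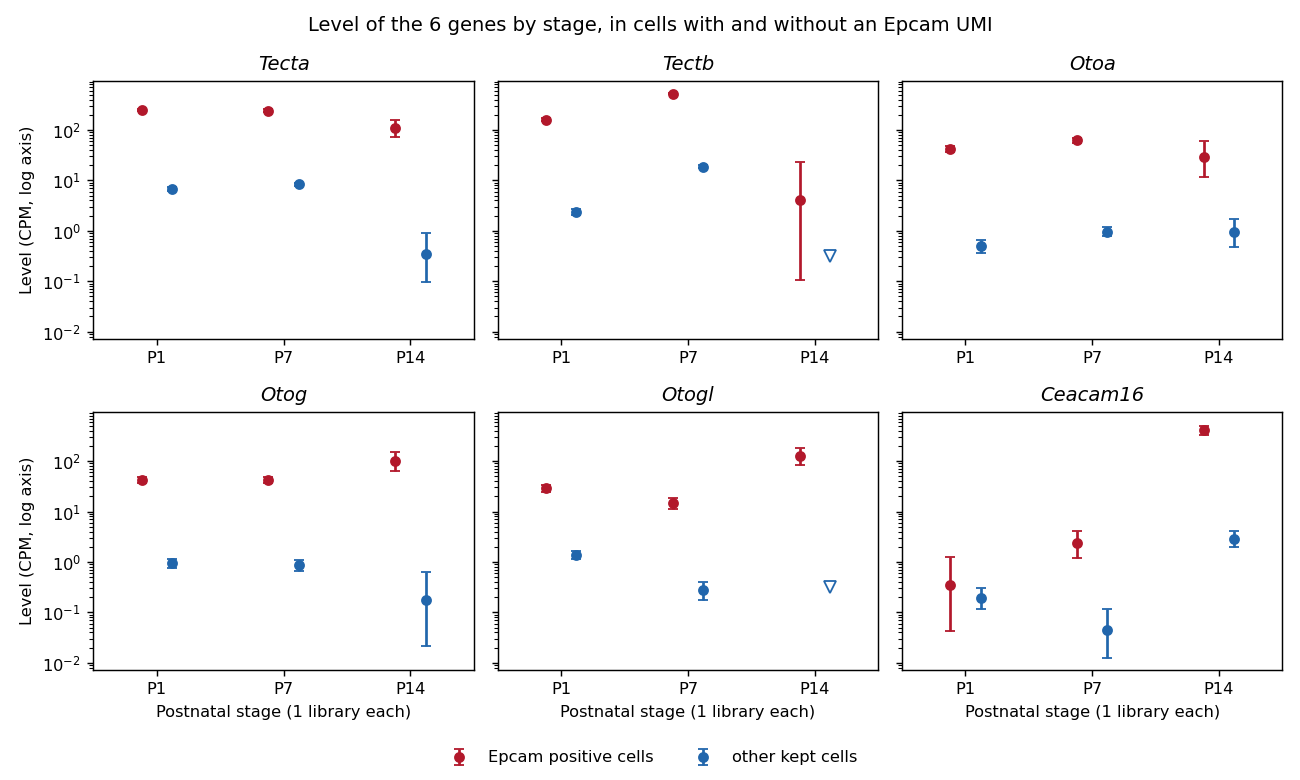
Level of each gene (CPM, log axis) at P1, P7 and P14, with Epcam positive cells in red and other kept cells in blue; bars are 95% counting intervals, and open triangles are upper bounds where no UMI was found. Tectb went from 160 CPM at P1 to 527 at P7 and 4.18 at P14 in Epcam positive cells, and Ceacam16 from 0.348 to 2.36 and 405.

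Between P1 and P7, Tectb was the only member past a limit on size that was also applied to all genes. A log2 ratio of 1 or more in size with 1 CPM added was used as the limit, among genes with a mean of at least 5 CPM. Of the members, 1 of the 5 members that passed the minimum, Tectb, was higher at P7, where 9.93% of 9806 genes were higher, and none was lower, where 8.31% were. The median log2 ratio of the 5 was -0.00, against 0.09 over all genes. Ceacam16 did not pass the minimum. From P7 to P14 all 6 members passed, and 3 were higher (Ceacam16, Otogl, Otog) and 3 lower (Tectb, Tecta, Otoa), against 21% of 9802 genes higher and 20.6% lower.

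The makeup of the Epcam positive cells changed with stage along with these levels. The summed level of 11 hair cell markers was 223 CPM at P1, 11.2 at P7 and 12.5 at P14. That of 6 glia markers was 571, 3727 and 3424 CPM, and it also differed in the other kept cells, at 651, 3787 and 6149 CPM. The 7 greater epithelial ridge markers summed to 1042, 2201 and 7938 CPM, with 4 of them detected at P14. For the 6 supporting cell markers the sums were 100, 134 and 12.5 CPM. The 3 strial marginal cell markers summed to 11.3, 7.27 and 1269 CPM. Their part in the differences between stages was not tested, and levels within sub-clusters are given below for that reason.

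At P1 and P7, the tectorins, Otoa and the otogelins had most of their UMIs in Epcam positive cells. Tecta was at 6.71 CPM in the other kept cells at P1 and 8.41 at P7, which gives log2 ratios of Epcam positive over other cells of 5.22 and 4.85. For Tectb the ratios were 6.10 and 4.81, and for Otoa 6.38 and 6.03. Otog had ratios of 5.50 and 5.63, and Otogl 4.40 and 5.74. The 5 members that passed the minimum at P1 were all past the limit in this direction, where 5.39% of 9623 genes were higher and 1.54% lower, and so were the 5 at P7, where 3.95% of 9479 genes were higher and 0.369% lower.

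At P14, 5 of 5 members that passed were again higher in Epcam positive cells, where 13% of 10269 genes were higher and 22.8% lower. Otogl had 30 UMIs in Epcam positive cells and none in the others, which makes its level there at least 476-fold higher, with 3 counts over the group as the floor. Ceacam16 had a log2 ratio of 7.13. It was the only one with more than 11 UMIs in the other P14 cells, namely 33 UMIs in 31 cells.

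Apart from Ceacam16, the share of each gene's UMIs that lay in Epcam positive cells at P1 and P7 was far above their 4.94% share of P1 cells and 4.55% share of P7 cells. For Tecta it was 69.9% at P1 and 62.6% at P7, and for Otoa 83.9% and 79.1%. Tectb went from 81.1% to 61.8%. Ceacam16 at P1 stood apart with 10.0%, or 2 of 20 UMIs, and its log2 ratio of 0.84 (-2.32 to 2.90) did not separate the groups.

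Clustering of all kept cells, again without the 6 genes among the variable genes, gave 1 cluster like cochlear epithelium (284, 214 and 79 cells at P1, P7 and P14). It showed the highest level of every member at every stage, except for Ceacam16 at P1, among the 18 cell types or unnamed clusters with 50 or more cells at P1 and P7 and 11 at P14. Tecta was at 584, 653 and 100.02 CPM there. Tectb was at 373, 1495 and 3.85 CPM. Otoa was at 96.4, 181 and 26.9 CPM. At P1 and P7 these levels were higher than in Epcam positive cells, of which 41.5% and 27.7% were in epithelial sub-clusters. Otog was at 95.1, 108 and 92.3 CPM, and Otogl at 63.1, 38.6 and 115 CPM. Ceacam16 had no UMI there at P1, and was at 6.15 CPM at P7 and 373 CPM at P14.

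**Figure D2:**
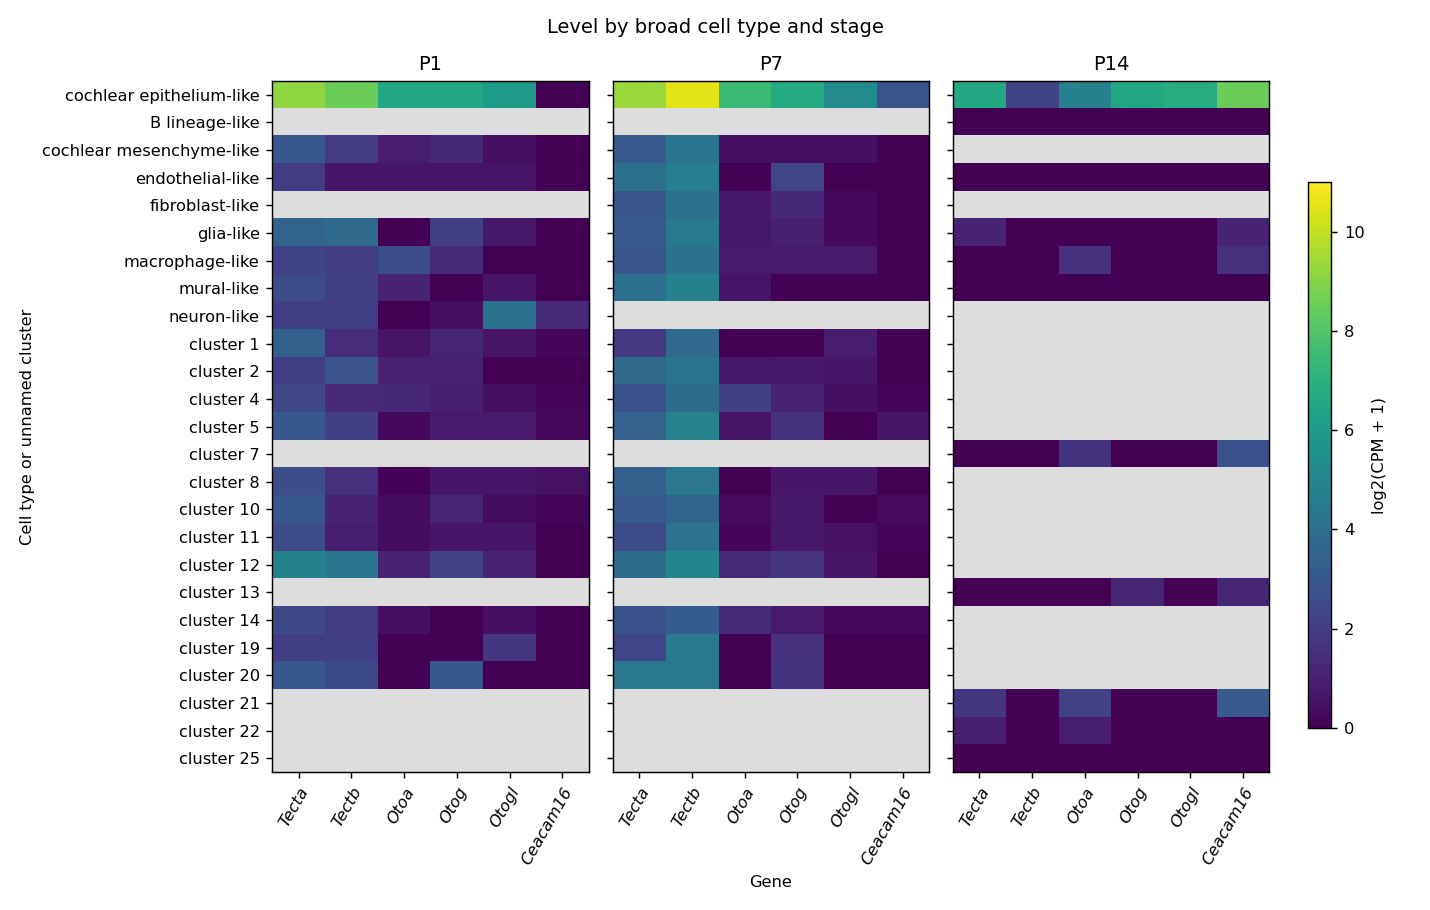
Level of the 6 genes as log2(CPM + 1), by colour, in each cell type or unnamed cluster (vertical axis) at P1, P7 and P14, with grey where a type had fewer than 50 cells. The cochlear epithelium-like row is the brightest for each gene at P7 and P14, and Tectb is above 0 in all 18 types at P7.

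Outside the epithelium, Tectb at P7 was low but present in every type. Its median over the 17 other types was 18.2 CPM and its lowest value 8.25 CPM, against medians of 2.96 CPM at P1 and 0 at P14. Macrophage-like cells, which should lack the gene, were at 16.3 CPM (10.2 to 24.8), with a Tectb UMI in 9.30% of 172 cells at a median depth of 6702 UMIs. The share in Epcam positive cells was 27.7% at a median depth of 7674. Tecta behaved alike at P7, with a UMI in 4.65% of macrophage-like cells against 33.7% of Epcam positive cells. Tecta made up 28.6% and Tectb 64.1% of the members' UMIs in P7 cells without Epcam, against 27.2% and 59.1% in Epcam positive cells. A tectorin level at or below that of macrophage-like cells is read here as background, and its source was not tested. For Otoa, Otog and Otogl the macrophage-like share was between 0% and 1.2% at every stage.

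Otogl had another group of cells above the macrophage-like level. In the neuron-like cells of P1, which were led by Stmn2, Snhg11 and Stmn3, it was at 16.2 CPM (13.1 to 19.7), from 98 UMIs in 75 of 288 cells (26.0%). These cells were deep, with a median of 21170.5 UMIs. Tecta had 19 UMIs and Otog 2 UMIs in the same cells, and both had more UMIs than Otogl in the P1 library. The source of the Otogl UMIs in these cells was not tested. No neuron-like group of 50 cells was present at P7 or P14, so that a change with stage could not be followed.

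Otoa outside the epithelium was highest at P7 in a cluster led by Aldh1a2, Calb2 and Kcnk2, at 3.27 CPM (28 UMIs in 22 of 1062 cells). At P1 the next highest value was 5.18 CPM in macrophage-like cells, but all 7 UMIs were in 1 cell. Ceacam16 at P1 was highest in neuron-like cells, at 1.49 CPM (0.68 to 2.82, 9 UMIs in 9 cells). At P14, 17 of its 33 UMIs outside Epcam positive cells lay in 16 of 1730 cells of a cluster led by Coch and Dmp1, at 5.79 CPM (3.37 to 9.27). A further 7 lay in 6 of 311 cells of a cluster led by Clec3b and Gpcpd1. The share of cells was larger in small groups, with 3 UMIs in 3 of 7 neuron-like cells and 2 in 2 of 13 cells of a cluster led by Nefh and Pcsk1. Of the macrophage-like cells at P14, 0.521% had a Ceacam16 UMI, at a median depth of 2200.5, and the Coch-led share was 0.925%.

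Within the epithelium the 6 genes divided the cells in different ways. The sub-clusters were named from marker lists and are described by their leading genes, and none of the 6 genes took part in making them. Greater epithelial ridge-like cells fell into a sub-cluster led by Epyc and Moxd1 (63 cells at P1, 60 at P7 and 10 at P14) and another led by Smoc2 and Ucma (73, 33 and 0 cells). Of the ridge list, the Smoc2-led cells had Epyc in 94.3%, Cpxm2 in 72.6% and Itm2a in 69.8% of cells. Calb1 was in 36.8%, Kazald1 in 34.0%, Crabp1 in 1.89% and Fabp7 in 0%. Sox2 was in 3.77% of them and 45.1% of the Epyc-led cells. No list covered interdental cells, another cochlear epithelial type, so the ridge-like name does not set them apart. Supporting cell-like cells numbered 37, 33 and 0, and Reissner's membrane-like cells 17, 31 and 15. An unnamed sub-cluster led by Fst and Agr2 held 49 cells at P1 and 1 at each later stage. Hair cell-like cells were 22, all at P1, and strial marginal cell-like cells were 21 at P14 and 1 at each earlier stage.

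Tecta was highest in the Epyc-led ridge-like cells, at 1616 CPM (1523 to 1712) over the 3 stages. Supporting cell-like cells followed at 956 CPM (888 to 1028) and Reissner's membrane-like cells at 343 CPM (299 to 392). The intervals of these neighbours in the order did not overlap. Hair cell-like cells were at 142 CPM (105 to 187), but 31 of the 50 UMIs lay in 1 cell and only 4 of 22 cells had any. The Smoc2-led ridge-like cells were at 89.4 CPM (72.9 to 109) and the Fst-led cells at 9.84 CPM, with all 5 UMIs in 1 cell.

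Tectb was high in the same ridge-like and supporting cell-like groups, but their order changed with stage. Over the 3 stages it was at 2146 CPM (2039 to 2257) in the Epyc-led cells and 1750 CPM (1657 to 1846) in supporting cell-like cells. At P1 alone the supporting cell-like cells were higher, at 1369 CPM (1241 to 1506) against 1014 CPM (920 to 1115), whereas Tecta was higher in the Epyc-led cells. In Reissner's membrane-like cells Tectb was at 12.8 CPM (5.54 to 25.3), with 8 UMIs where Tecta had 214. Hair cell-like cells had 19.8 CPM, all from 1 cell, and the Smoc2-led cells 12.3 CPM (6.71 to 20.6). Among the epithelial sub-clusters, Tectb and Tecta thus shared the Epyc-led and supporting cell-like groups and differed in Reissner's membrane-like cells. The other Epcam positive cells were at 88.1 CPM (78.6 to 98.3) of Tecta and 186 CPM (172 to 201) of Tectb at P7. Of these Tectb UMIs, 48.0% lay in 5 cells. Glia-like cells held 13.6% of the Tecta and 11.1% of the Tectb UMIs of Epcam positive cells at P7. The source of these UMIs was not tested.

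Otoa marked the Smoc2-led group, whose ridge-like name has the limits given above. The Smoc2-led cells were at 409 CPM (373 to 448), and 89 of 106 had an Otoa UMI. Next were Reissner's membrane-like cells at 46.5 CPM (31.1 to 66.8) and the Epyc-led cells at 35.4 CPM (22.9 to 52.2), whose intervals overlapped. The Smoc2-led cells held 87.9% of the Otoa UMIs of Epcam positive cells at P1 and 80.1% at P7.

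Otog followed the tectorins in part. It was at 225 CPM (192 to 261) in supporting cell-like cells, 151 CPM (122 to 184) in Reissner's membrane-like cells and 133 CPM (107 to 163) in the Epyc-led cells, with overlap between the latter pair. The Smoc2-led cells were lowest among the larger groups, at 14.0 CPM (8.02 to 22.8). Otogl had yet another order over the 3 stages together, in which the Fst-led cells are almost all from P1. The Fst-led cells were at 150 CPM (118 to 187) and the Reissner's membrane-like cells at 122 CPM (96.0 to 153), with overlapping intervals, followed by the Epyc-led cells at 49.5 CPM (34.5 to 68.9) and the supporting cell-like cells at 43.1 CPM (29.7 to 60.6). The Fst-led cells, which also carried Bmp4 and Gata2 among their leading genes, had an Otogl UMI in 39 of 51 cells but a Tecta UMI in only 1.

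**Figure D3:**
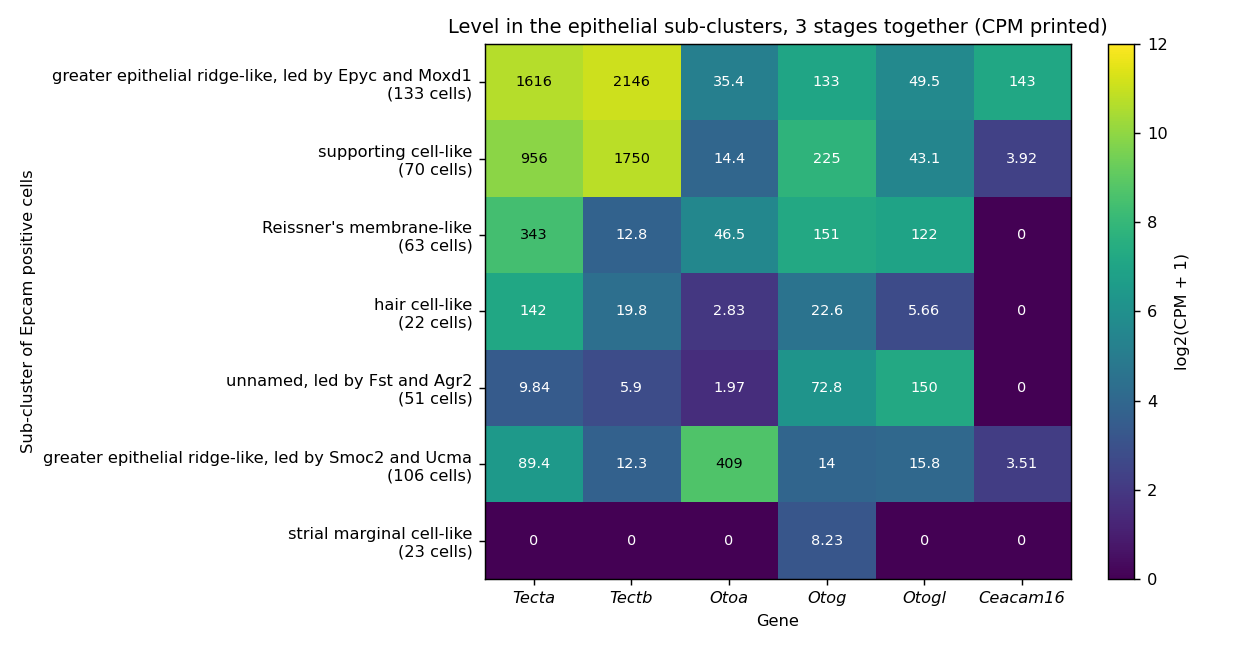
Level of each gene (horizontal axis) in the epithelial sub-clusters of Epcam positive cells (vertical axis), with the CPM printed and the colour as log2(CPM + 1). Tectb is at 2146 and 1750 CPM in 2 sub-clusters and at 19.8 CPM or less in the others, and with the 3 stages together Otoa is highest (409 CPM) in the ridge-like cells led by Smoc2 and Otogl (150 CPM) in the cells led by Fst, of which 49 of 51 are from P1.

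Differences between P1 and P7 were next examined within sub-clusters. In the Epyc-led cells, Tectb was at 1014 CPM (920 to 1115) at P1 and 4449 CPM (4189 to 4722) at P7, a 4.39-fold difference with a log2 ratio of 2.13 (1.97 to 2.30). Tecta in the same cells was at 1763 CPM (1638 to 1894) and 1628 CPM (1472 to 1796), a log2 ratio of -0.12 (-0.29 to 0.06). Thus the tectorins differed from each other in the same cells as they did over all Epcam positive cells. In these cells 20.9% of 8956 genes were higher at P7 by the limit and 16.2% were lower, and among the 6 members Tectb and Ceacam16 (4 UMIs against none) were higher and Otogl lower (5 UMIs against 27). The median depth of these cells was 4973 UMIs at P1 and 1694.5 at P7. Thinned to 1000 UMIs per cell, 48.3% (35.2 to 61.6) of the Epyc-led cells had a Tectb UMI at P1 and 68.6% (54.1 to 80.9) at P7. A Tecta UMI was found in 68.3% (55.0 to 79.7) and 64.7% (50.1 to 77.6). The intervals of the 2 stages overlapped for both genes. Thinning left out 3 of these cells at P1 and 9 at P7.

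In supporting cell-like cells the shift was less even. The summed Tectb level was 1369 CPM (1241 to 1506) at P1 and 2006 CPM (1879 to 2141) at P7, but 86.7% of the 917 P7 UMIs lay in 5 cells, with 262 in 1 of them. Without that cell the P7 level was 1512 CPM (1399 to 1633). The share of these cells with a Tectb UMI went the other way, from 73.0% to 57.6%, although the P7 cells were deeper (15022 against 7097 UMIs at the median). After thinning it was 54.1% (36.9 to 70.5) of 37 cells and 33.3% (18.0 to 51.8) of 33, with overlapping intervals. Tecta went from 1284 CPM (1161 to 1417) to 735 CPM (659 to 818). Otog changed less, from 259 CPM (206 to 323) to 201 CPM (162 to 247).

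Otoa in the Smoc2-led cells was at 284 CPM (247 to 325) at P1, with a UMI in 76.7% of 73 cells, and at 641 CPM (565 to 724) at P7, with a UMI in all 33 cells. Up to 20 Otoa UMIs were found in 1 cell, and the median depth was 8806 UMIs at P1 and 10979 at P7. After thinning, 23.3% (14.2 to 34.6) of the cells had an Otoa UMI at P1 and 54.5% (36.4 to 71.9) at P7. Both groups with the ridge-like name thus had a member with a higher level at P7, Tectb in the Epyc-led and Otoa in the Smoc2-led cells.

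In Reissner's membrane-like cells, Otogl was at 115 CPM (71.5 to 176) at P1, 83.9 CPM (57.4 to 118) at P7 and 382 CPM (242 to 574) at P14. The P14 level was above both earlier intervals, with a UMI in 11 of 15 cells. Tecta was at 203 CPM (143 to 280), 396 CPM (335 to 464) and 432 CPM (282 to 633) there. Leaving out the P14 cell highest in Tecta gave 190 CPM (86.8 to 360). Otog at P14 was found in a single cell of this sub-cluster, so that its 349 CPM describe that cell. Oc90, the leading gene of the sub-cluster, was at 338 CPM in all Epcam positive cells of P14 and 6334 CPM in those of P7. Whether the P14 cells of the sub-cluster are the same cell type as the earlier ones was not tested.

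**Figure D4:**
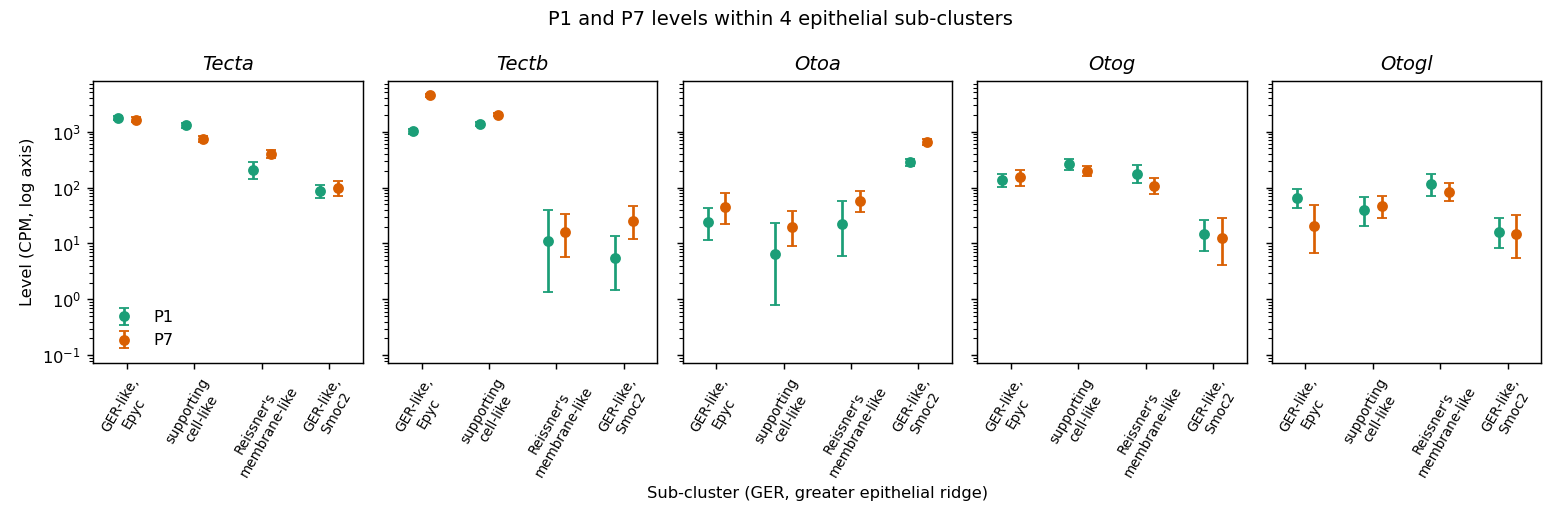
Levels (CPM, log axis) of 5 genes at P1 (green) and P7 (orange) in 4 epithelial sub-clusters on the horizontal axis, with 95% counting intervals. In the ridge-like cells led by Epyc, Tectb was at 1014 CPM at P1 and 4449 CPM at P7 while the Tecta intervals overlapped, and Otoa was at 284 and 641 CPM in those led by Smoc2.

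Single cells of the epithelial sub-clusters often carried both tectorins. Of the 72 cells with a Tectb UMI at P1, 65 (90.3%) also had Tecta, and at P7 it was 67 of 77 (87.0%). In the other direction, 50.4% of cells with Tecta had Tectb at P1 and 57.3% at P7. Among all cells of these sub-clusters, 262 at P1 and 159 at P7, Tecta was found in 49.2% and 73.6%. Tectb was found in 27.5% and 48.4% of them. Tectb and Otoa met in fewer cells, in 11 of 72 (15.3%) cells with Tectb at P1 and 19 of 77 (24.7%) at P7. Otoa was found in 26.3% and 37.1% of all cells of these sub-clusters.

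The genes most like each member across Epcam positive cells followed these groups. The correlations that follow are descriptions over 631 cells at P1 and 573 at P7 that share a library and fall into clusters, among 8979 and 8971 genes. Tecta was closest to Tectb at both stages, with a Pearson r of 0.664 and 0.758. For both tectorins the next at P1 were Spock1, a proteoglycan gene (0.617 and 0.639), and Scrn1 (0.595 and 0.583). At P7 the next was Cpxm2, a carboxypeptidase-like gene (0.588 and 0.605), followed by Mia for Tecta (0.564) and the transcription factor gene Isl1 for Tectb (0.523). The closest genes of Otog were Tecta (0.529 at P1 and 0.562 at P7) and Tectb (0.491 and 0.481), with Anxa5 (0.429) at P1 and Spock1 (0.490) at P7.

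Otoa and Otogl had other neighbours. Otoa was closest to the matrix genes Smoc2 (0.694) and Ucma (0.754) at P1 and P7, respectively, then to Fxyd6 (0.633) and LOC103690070 (0.629) at P1 and Smoc2 (0.614) and Bricd5 (0.604) at P7. Otogl at P1 was closest to the transcription factor gene Gata2 (0.503), Fst, which encodes the activin antagonist follistatin (0.480), and Psen2 (0.455). At P7 it was found in fewer than 50 Epcam positive cells and was not compared.

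The P14 library held few cells of the groups that carried these genes at P1 and P7. Of its 65 Epcam positive cells, 23 had a UMI of any of the 6 genes, and apart from a glia-like, a strial marginal cell-like and an Fst-led cell these were ridge-like led by Epyc or Reissner's membrane-like. The Ceacam16 UMIs lay in 3 of the 10 ridge-like cells led by Epyc, a proteoglycan gene. Epyc was not particular to this sub-cluster. Over the 3 stages it was found in 64.7% of its cells, 94.3% of the Smoc2-led and 86.3% of the Fst-led cells. The Fst-led P14 cell with an Otogl UMI had 285 Epyc UMIs. The cell with 86 Ceacam16 UMIs was shallow, with 742 UMIs in all, so that 11.6% of its UMIs were Ceacam16, and it had 7 Epyc and 2 Epcam UMIs. Another had 10 Ceacam16 and 177 Epyc UMIs among 3933, and the last 1 Ceacam16 and 314 Epyc UMIs among 10150. The only Tectb UMI of the library was in that last cell. The same 10 cells had no Tecta UMI, against 88.9% of the Epyc-led cells at P1 and 86.7% at P7. The upper bound of their Tecta level was 91.7 CPM, below the intervals of P1 and P7. The study reports that its greater epithelial ridge clusters were gone at P14. Whether these 10 cells are the same cell type as the Epyc-led cells of P1 and P7 was not tested, so that the comparison need not be a change within 1 cell type.

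The cell with the most Tecta (17 UMIs) and Otog (21 UMIs) at P14 was 1 Reissner's membrane-like cell with 12717 UMIs, of which 26 were Epcam and 4 Otogl. Strial marginal cell-like cells, the largest epithelial group of P14, had 1 Otog UMI and no UMI of the other 5 genes in 21 cells.

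**Figure D5:**
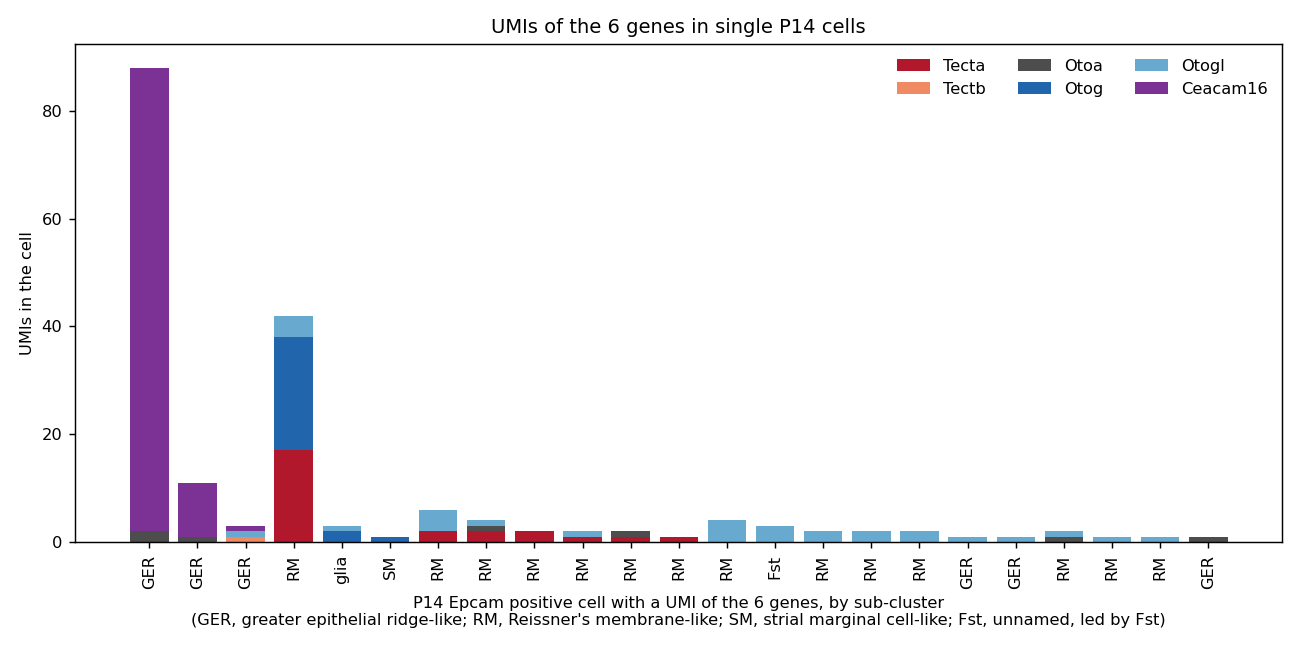
UMIs of the 6 genes (vertical axis, stacked by colour) in each of the 23 Epcam positive P14 cells that had any, with the sub-cluster named on the horizontal axis. One ridge-like cell holds 86 Ceacam16 UMIs, and 1 Reissner's membrane-like cell holds 17 Tecta and 21 Otog UMIs.

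Other genes of the acellular gels and of attachment to them were taken from a list of 21 genes, of which 19 were in the matrices and 8 had at least 50 UMIs in Epcam positive cells. Most of those measured did not have a higher level in Epcam positive cells by the limit. The fibrillar and associated collagens Col2a1, Col9a1, Col9a3 and Col11a1 had log2 ratios of Epcam positive over other cells between -0.32 and 0.28 at P1. Col9a2 (1.16), Col11a2 (1.06) and Oc90, the otoconial protein gene (7.61), were the 3 of 7 past the limit, against 5.39% of all genes. From P1 to P7, 3 of 8 were higher, against 9.93% of all genes, and none lower, against 8.31%. They were Col11a2 (log2 ratio 1.32), Oc90 (1.45) and the otoancorin relative Msln (2.51). From P7 to P14, 5 of 9 were lower, namely Oc90 (-4.23), Col9a1 (-3.30), Col9a2 (-2.85), Col9a3 (-2.27) and Col2a1 (-1.39), against 20.6% of all genes, and 2 were higher, against 21%, namely Msln (1.81) and the otogelin relative Vwf, an endothelial gene, which had 13 UMIs at P14 and 2 at P7. The median log2 ratio of the list was 0.78 from P1 to P7 and -1.38 from P7 to P14, against 0.09 and -0.00 over all genes.

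Partners were also divided among the epithelial groups. The Epyc-led cells had 2222 CPM (2114 to 2335) of Col9a1 and 202 CPM (171 to 238) of Col9a3, against 532 CPM (491 to 576) and 28.9 CPM (19.9 to 40.6) in the Smoc2-led cells. Col9a2 was higher in the Smoc2-led cells, at 3477 CPM (3370 to 3587) against 2428 CPM (2314 to 2545). Msln was at 133 CPM (106 to 165) in Reissner's membrane-like cells and 27.2 CPM (18.5 to 38.6) in the Smoc2-led cells, which are the groups highest in Otoa, and had no UMI in the Epyc-led cells. Oc90 was at 72748 CPM in Reissner's membrane-like cells, where it leads the group, and no higher than 255 CPM in the other 6 sub-clusters.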

How the data were processed

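The authors captured cells on the Chromium 3′ platform, demultiplexed reads with bcl2fastq, aligned them to rn6 and counted UMIs with Cell Ranger (the matrix headers give software version 3.1.0), and analysed them in Seurat 3.1.1. The deposited matrices hold UMI counts per gene and barcode, as whole numbers without normalization. The annotation and the cell calling rule are not given in the sources used here. The 3 matrices held 14068, 14501 and 6358 barcodes with 114285848, 101264868 and 12616390 UMIs. The study gives all deposited barcodes as the cells that passed its limits, but 30641 of 34927 did when the limits were applied.

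The 6 members and all gene lists were chosen with earlier results of these data known. A level is the summed UMIs of a gene per 1000000 UMIs of the same cells (CPM), with an exact Poisson interval. Shares have Clopper-Pearson intervals, and log2 ratios the exact conditional binomial interval. UMIs were counted, so PCR copies do not enter, but the intervals and floors hold no variation between animals or libraries. Levels were not divided by gene length, and no ranking of the 6 genes by level is given.

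For clustering, Seurat 5.3.0 under R 4.3.3 was run on the merged libraries after log-normalization, at resolution 0.8 on 10 principal components of 2000 variable genes that left out the 6 members. Epcam positive cells were clustered again in the same way. A cluster was named when 1 marker list led the others by a log2 margin of 1 with at least 3 markers detected. No other compared list could have more genes among the 10 leading genes. Clusters of all cells also needed at least 1 gene of the list there. Epithelial sub-clusters were compared only with the lists of epithelial cell types. The supporting cell-like and Smoc2-led sub-clusters had no gene of their own list among the leading genes. This rule was set after the clusters were seen. Some listed markers, Ocm and Foxd3 among them, were not found in the matrices by symbol. Named genes are the members, the listed partners with at least 50 UMIs in Epcam positive cells, and for each member found in at least 50 Epcam positive cells of a stage the 3 genes with the highest Pearson r. Leading genes of clusters and the partner Vwf were named after their values were seen. Scrublet through scanpy 1.11.5 marked 4.87% of kept cells at P1, 6.16% at P7 and 0.0379% at P14, where it did not work, and marked cells were kept. Shares were also computed after thinning each cell to 1000 UMIs, which left out 5, 11 and 3 Epcam positive cells. Python 3.11.15, numpy 2.4.6, scipy 1.17.1, pandas 2.3.3 and matplotlib 3.10.9 were used for the other steps, which were tested on simulated data. Coordinates on rn6 were not used here, and promoter sequences are those of RefSeq on GRCr8.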

Additional observations from a re-analysis of the deposited data

How the results depend on the processing

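No paired analysis was possible because each stage has only 1 library, which leaves no pairs to compare. In Epcam positive cells the P14 level of a gene rested on at most 16 cells. Of the main values recomputed, 136 stayed within their counting interval, 76 moved beyond it and 3 reversed from a log2 ratio past 1, and the cause was not tested beyond what each setting leaves out. All log2 ratios of Epcam positive over other cells past 1 kept their direction.

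The 3 reversals were those of Otog from P7 to P14, which had a log2 ratio of -0.97 with the mean CPM of each cell, -0.23 in epithelium-like clusters and -1.67 without the P14 cell highest in the gene. Without that cell, chosen after seeing the data, the ratio was -2.62 for Tecta and 4.29 for Ceacam16.

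For the log2 ratio of P7 over P1, those of Tecta and Otog, which were close to 0, also changed sign under several settings. Tecta was at 0.12 in cells with 2 or more Epcam UMIs, 0.30 in epithelium-like clusters, 0.76 with the mean CPM of each cell, 0.26 with no upper limit on genes, 0.0776 without cells marked by Scrublet and 0.0730 without the 5 cells highest in the gene. Tectb was at 2.18 in epithelium-like clusters, 2.89 with the mean CPM, 1.89 with no upper limit and 1.57 without 5 cells. Otoa was at 0.88 with 2 or more Epcam UMIs and 1.09 in epithelium-like clusters. Otog was at 0.33 in epithelium-like clusters and 0.57 with the mean CPM, and Otogl at -0.54 and -1.42.

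For P14 over P7, 2 or more Epcam UMIs gave -1.90 for Tecta, 0.46 for Otog, 2.26 for Otogl and 6.53 for Ceacam16. Epithelium-like clusters gave -2.71 for Tecta, -2.75 for Otoa, 1.58 for Otogl and 5.92 for Ceacam16, and the mean CPM -2.91 for Tecta, -0.0044 for Otoa and 10.29 for Ceacam16. Without 5 cells Tecta was at -4.42 and Otoa at -3.36. A mitochondrial limit of 10% gave -0.31 for Tecta, 2.16 for Otog and 4.03 for Otogl.

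For Epcam positive over other cells at P1 and P7, 2 or more Epcam UMIs gave 5.94 and 5.65 for Tecta, 7.03 and 5.44 for Tectb, 7.39 and 7.31 for Otoa, 6.31 and 6.34 for Otog, and 5.04 and 6.61 for Otogl. Epithelium-like clusters gave 6.33 and 6.20 for Tecta, 7.02 and 6.35 for Tectb, 7.20 and 7.66 for Otoa, 6.42 and 6.69 for Otog, and 5.24 and 6.92 for Otogl. The mean CPM gave 4.69 and 5.19 for Tecta, 5.67 and 4.97 for Tectb, 5.14 for Otoa at P7, 5.11 for Otog and 5.05 for Otogl at P1, and 6.82 for Otog and 9.09 for Ceacam16 at P14. With no upper limit, P1 values were 5.08 for Tecta and 3.91 for Otogl. Without 5 cells they were 5.02 for Tecta at P1, 5.86 and 4.45 for Tectb at P1 and P7, and 3.10 for Otoa at P14. A mitochondrial limit of 10% gave 5.14 for Tectb at P7, 5.58 for Otogl at P1 and 8.06 for Ceacam16 at P14.

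When libraries were clustered on their own, the highest epithelial sub-cluster at P7 had 1983 CPM of Tecta, 6331 of Tectb and 156 of Otog. Clustering without cells marked by Scrublet put 67.9% of Tectb UMIs in epithelium-like and hair cell-like clusters, against 65.1% with them. With 10 CPM added and no minimum in place of 1 CPM and 5 CPM, 1.97% of all genes were higher at P7 than at P1 in Epcam positive cells, against 9.93%, and 1.40% were higher in Epcam positive cells of P1, against 5.39%.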
